A study of Homo sapiens with 39 samples.

Results

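The comparison set the vehicle arrays of acute myeloid leukemia (AML) lines with a high level of the retinoic acid receptor alpha gene (RARA) against those of lines with a low level, before any drug had acted. It rested on 18 of the 39 arrays of the series. All 18 came from cells kept for 24 h with DMSO, the solvent of the drug. The RARA-high lines were Sig-M5 (2 arrays), OCI-AML3 (3 arrays) and MV-4-11 (3 arrays). The RARA-low lines were OCI-M1 (3 arrays), KG-1a (2 arrays), Kasumi-1 (2 arrays) and NOMO-1 (3 arrays). Tamibarotene, a synthetic retinoid that activates the receptor, was given to the same 7 lines on the remaining 21 arrays, added at 100 nM for a final 50 nM over 24 h. These arrays served only for a side-by-side view. Messenger RNA was measured on Affymetrix PrimeView arrays, and levels are robust multi-array average (RMA) values on the log2 scale, on which a difference of 1 is a doubling. The arrays of a line were averaged, and the 3 RARA-high line means were set against the 4 RARA-low line means. A difference is the mean of the RARA-high line means minus the mean of the RARA-low line means, with its standard error (SE) from limma, a linear model fitted across all genes. The labels do not state whether the arrays of a line came from separate cultures, so the spread between arrays may be technical.

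RARA encodes a nuclear receptor that binds DNA as a heterodimer with a retinoid X receptor such as RXRA. Without ligand the pair holds corepressors at retinoic acid response elements, which are built from repeats of the motif AGGTCA, and with ligand it exchanges them for coactivators. In the myeloid lineage the receptor is known for its part in granulocytic maturation and for its fusion to PML in acute promyelocytic leukemia. The lines stand for different leukemias. OCI-M1 is an erythroleukemia line, KG-1a an immature myeloid line, Kasumi-1 carries the RUNX1-RUNX1T1 fusion, and MV-4-11 and NOMO-1 carry rearrangements of KMT2A. Each line derives from 1 leukemia, so the RARA level cannot be told apart from anything else that the 3 RARA-high lines happen to share.

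The lines were chosen by their measured RARA level, read as the mean of the vehicle arrays of a line, so the RARA values are a description and were not tested. The vehicle line means of RARA were 9.11 in Sig-M5, 8.49 in OCI-AML3 and 8.38 in MV-4-11. In the RARA-low lines they were 7.80 in OCI-M1, 7.61 in KG-1a, 7.58 in Kasumi-1 and 7.17 in NOMO-1. The class threshold was 8.2, with MV-4-11 just above it and OCI-M1 just below it at a distance of 0.58 from each other. MV-4-11 and OCI-AML3 differed by less than the spread of the OCI-AML3 arrays, which ran from 8.10 to 8.70, so 1 of these arrays lay below the threshold. The KG-1a arrays (7.58 to 7.64) and the Kasumi-1 arrays (7.57 to 7.58) also overlapped. The array carries 10 RARA probe sets, and in 8 of them all RARA-high line means lay above all RARA-low line means, with differences from 0.40 to 1.34 over the 10. The probe set that set the classes is of a kind (suffix x) whose probes can also match other transcripts. On the tamibarotene arrays RARA averaged 8.44 in Sig-M5, 8.23 in OCI-AML3 and 8.46 in MV-4-11, against 7.81 in OCI-M1, 7.81 in KG-1a, 7.32 in Kasumi-1 and 7.37 in NOMO-1. The classes were thus separate in both arms.

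**Figure D1:**
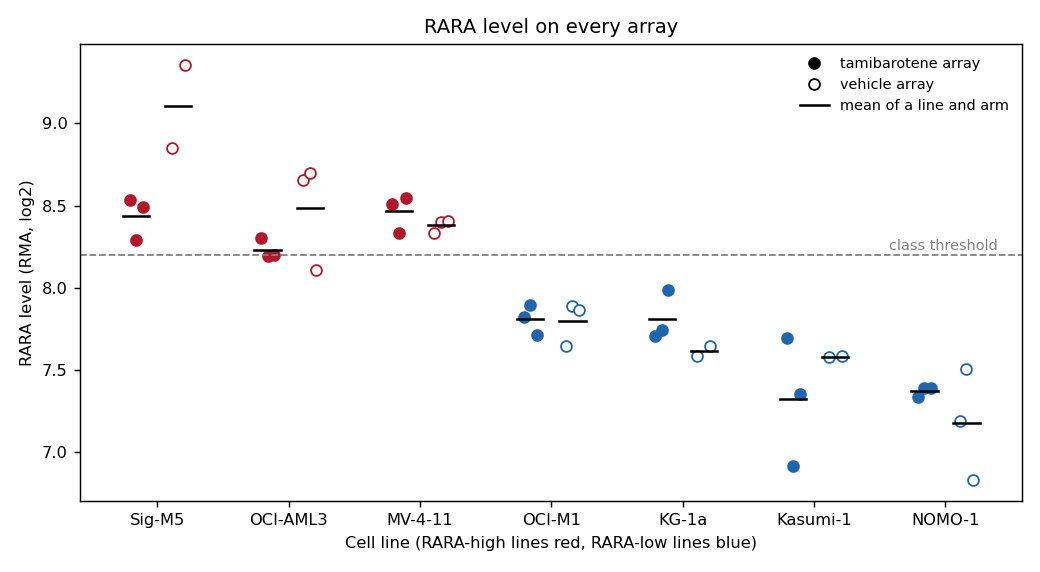
RARA level (RMA, log2) on every array of the 7 lines, with tamibarotene arrays filled and vehicle arrays open, RARA-high lines in red and RARA-low lines in blue. Bars are means of a line and arm, and the dashed line is the class threshold of 8.2. The vehicle means ran from 8.38 to 9.11 in the RARA-high lines and from 7.17 to 7.80 in the RARA-low lines.

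RefSeq lists 3 promoters of RARA on the build GRCh38.p14, each a window of 300 bases around a transcription start. They are relevant here because the gene that defines the classes encodes a factor that binds AGGTCA. The first holds this motif, shown in capitals, at chr17:40308930-40309229 on the plus strand.
RARA promoter: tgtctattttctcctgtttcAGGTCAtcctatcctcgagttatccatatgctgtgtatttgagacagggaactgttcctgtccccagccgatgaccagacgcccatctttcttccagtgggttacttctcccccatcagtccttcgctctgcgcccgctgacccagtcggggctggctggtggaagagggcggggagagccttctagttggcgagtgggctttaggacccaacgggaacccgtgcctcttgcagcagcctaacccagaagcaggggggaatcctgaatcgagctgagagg
The motif AGGTCA, searched on both strands, was in 1 of the 3 RARA promoters and in 13.8% of the 35116 human promoters in the table. A match of this length is a description of the sequence and not a measured binding site. None of the 21 measured genes of a list of neighbours of RARA on chromosome 17 had line means that separated the classes, and their median difference was 0.03. Among the 20 nearest measured genes the count was also 0. TOP2A, a nearby gene for a mitotic DNA topoisomerase, was high in Sig-M5 alone at 12.26, against 8.25 in OCI-AML3, 7.96 in MV-4-11 and 7.29 to 8.64 in the RARA-low lines, and it was singled out after its values were seen.

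The 18 vehicle arrays had medians from 5.01 to 5.17 and SDs from 2.31 to 2.49. Arrays of the same line correlated at 0.979 to 0.997 over all 49395 probe sets, against 0.858 to 0.965 for arrays of different lines. RNA integrity, read as the beta-actin 3' minus 5' signal, was poorer on Sig-M5 vehicle replicates 1 and 2 (0.81 and 1.89) and Kasumi-1 vehicle replicate 2 (1.18) than on the other 15 vehicle arrays (-0.02 to 0.56). All vehicle arrays of Sig-M5 are thus of lower integrity, so integrity and line cannot be told apart there. Calls with the actin signal as a covariate and counts without Sig-M5 or its vehicle replicate 2 are given below. Lineage markers differed widely between the lines. The erythroid factors GATA1 and KLF1 were highest in OCI-M1 at 9.93 and 11.32, and CD34, the surface marker of hematopoietic progenitors, was highest in KG-1a at 9.67. Myeloperoxidase (MPO), the defining enzyme of the granulocytic lineage, was high in Sig-M5 (13.87), Kasumi-1 (13.77) and NOMO-1 (12.90), and at 4.03 to 6.52 in the other 4 lines. Of 13 markers of adherent cells the median line mean was 4.03. The highest was PECAM1, which leukocytes also express, at 10.49 in NOMO-1. The epithelial marker EPCAM was at 9.22 in Kasumi-1 and at 2.65 to 3.34 elsewhere.

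No gene passed the threshold of an adjusted p under 0.05 in limma over the 7 line means, with Benjamini-Hochberg adjustment over 18131 genes (RARA left out). The called share was thus 0% in each direction. At an unadjusted p under 0.05 there were 416 genes higher (2.29%) and 498 lower (2.75%) in the RARA-high lines, 914 in all (5.04%). A threshold of 0.05 passes about this total share by chance alone. The smallest adjusted p was 0.137, shared by CD69, TBX3, SRI and MLF1. SRI (sorcin, a calcium-binding protein) and MLF1 (myeloid leukemia factor 1) were singled out for their p after the values were seen. SRI averaged 10.37 in Sig-M5, 10.38 in OCI-AML3 and 10.19 in MV-4-11, against 11.36 to 11.58 in the RARA-low lines. MLF1 averaged 2.92 in Sig-M5, 3.20 in OCI-AML3 and 2.91 in MV-4-11, against 4.34 to 4.74 in the RARA-low lines. The lines of a class differed among themselves more than their arrays did. The median SD was 0.36 between the line means of a class and 0.17 between the arrays of a line. The median SE of a difference was 0.26. Without NOMO-1 limma called 5 genes higher (LAMP5, PPP1R27, MEF2D, CD70 and CPM) and 3 lower (CD69, C3AR1 and PTH2R), and without OCI-M1 it called 2 lower (FZD6 and WFDC1). With the 18 arrays in the fit and line as a random block it called 62 genes higher (0.342%) and 173 lower (0.954%). In that fit the arrays were the units and all genes shared 1 correlation within lines (0.763). Its calls are thus not counts over independent lines.

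Because no gene was called, genes were described by whether the classes separated. The line means of 795 genes (4.38%) lay higher in all 3 RARA-high lines than in any RARA-low line, and those of 497 genes (2.74%) lay lower. With so few lines some genes separate by chance alone, and these counts were not tested against that. With single arrays in place of line means, 85 genes (0.469%) were separate in the higher direction and 185 (1.02%) in the lower one. The lines did not fall into their RARA classes over all genes. OCI-AML3 and MV-4-11 were the most alike pair (r = 0.962 across genes), followed by OCI-AML3 with the RARA-low line NOMO-1 (0.947) and MV-4-11 with NOMO-1 (0.945). Sig-M5 correlated at 0.925 with OCI-AML3 and at 0.916 with MV-4-11, and the RARA-low lines with one another at 0.897 to 0.923. These are descriptions across genes, which are not independent replicates.

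The genes with the widest gap between the classes were described next, the gap being the lowest line mean of one class minus the highest line mean of the other. In the higher direction the 15 widest gaps ran from 0.97 to 3.50. PPP1R27, a regulatory subunit of protein phosphatase 1, averaged 13.08 in Sig-M5, 12.29 in OCI-AML3 and 11.99 in MV-4-11. In the RARA-low lines it averaged 3.71 in OCI-M1, 4.31 in KG-1a, 4.31 in Kasumi-1 and 8.49 in NOMO-1. It was close to the bottom of the scale in 3 RARA-low lines and intermediate in NOMO-1. The single arrays of PPP1R27 ran from 11.98 to 13.15 (median 12.26) in the RARA-high lines and from 3.64 to 8.71 (median 4.31) in the RARA-low lines. The difference was 7.25 ± 1.18 (adjusted p = 0.64 in limma).

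LAMP5, a lysosome-associated membrane protein known as a marker of plasmacytoid dendritic cells, was likewise intermediate in NOMO-1. It averaged 12.16 in Sig-M5, 12.64 in OCI-AML3 and 12.36 in MV-4-11, against 4.02 in OCI-M1, 4.50 in KG-1a, 4.03 in Kasumi-1 and 9.05 in NOMO-1. NAV3, a neuron navigator protein that binds microtubules, averaged 10.89 in Sig-M5, 7.97 in OCI-AML3 and 6.77 in MV-4-11, against 3.28 to 3.46 in the RARA-low lines. The RARA-low lines were thus nearly alike in NAV3 while the RARA-high lines were spread widely. TBX3, a T-box transcriptional repressor, averaged 6.38 in Sig-M5, 6.64 in OCI-AML3 and 6.25 in MV-4-11, against 4.05 in OCI-M1, 3.83 in KG-1a, 4.56 in Kasumi-1 and 4.20 in NOMO-1. Over single arrays it ran from 6.08 to 6.77 (median 6.50) in the RARA-high lines and from 3.77 to 4.69 (median 4.14) in the RARA-low lines. The difference was 2.26 ± 0.20 (adjusted p = 0.137), and 5 of its 6 probe sets separated the classes.

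MEF2D, a MADS-box transcription factor of muscle, nerve and blood cells, averaged 10.96 in Sig-M5, 11.05 in OCI-AML3 and 10.87 in MV-4-11. In the RARA-low lines it averaged 8.50 in OCI-M1, 8.74 in KG-1a, 8.81 in Kasumi-1 and 9.45 in NOMO-1. The single arrays of MEF2D ran from 10.66 to 11.23 (median 11.02) in the RARA-high lines and from 8.19 to 9.52 (median 8.74) in the RARA-low lines. All 6 of its probe sets separated the classes, and the difference was 2.08 ± 0.24 (4.24-fold, adjusted p = 0.21). The cytokine TNF averaged 9.19 in Sig-M5, 9.61 in OCI-AML3 and 8.48 in MV-4-11, against 4.84 in OCI-M1, 5.26 in KG-1a, 6.19 in Kasumi-1 and 7.06 in NOMO-1. P2RY6, a receptor for extracellular UDP, differed by 3.25 ± 0.65. Its line means were 7.29 to 8.65 in the RARA-high lines and 3.44 to 5.72 in the RARA-low lines.

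MS4A3, a membrane protein of granulocyte-monocyte progenitors, showed how uneven a wide gap can be. It averaged 12.04 in Sig-M5, 11.84 in OCI-AML3 and 12.53 in MV-4-11, against 10.63 in OCI-M1, 3.50 in KG-1a, 3.77 in Kasumi-1 and 6.78 in NOMO-1. The other genes of the group were the LIM homeodomain factor ISL2 (difference 3.72), TMEM121B (3.52), the adaptor SASH1 (3.36), the actin-oxidising enzyme MICAL1 (3.35), the secreted factor METRN (2.69), the cell-junction protein KAZN (2.68) and the zinc-finger factor ZNF217 (1.64). All 15 genes were also separate over single arrays. These arrays gave the line means that chose the genes, so this adds no support. Of the 9 genes with several probe sets, 9 had the same sign in every probe set, and 7 were separate in every one.

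In the lower direction the 15 widest gaps ran from 1.45 to 3.31. CLEC2B, a C-type lectin recognised by natural killer cells, averaged 4.21 in Sig-M5, 3.24 in OCI-AML3 and 3.74 in MV-4-11. It averaged 7.51 in OCI-M1, 9.79 in KG-1a, 8.78 in Kasumi-1 and 10.57 in NOMO-1. The single arrays of CLEC2B ran from 3.14 to 4.68 (median 3.69) in the RARA-high lines and from 7.33 to 11.11 (median 9.33) in the RARA-low lines. The difference was -5.43 ± 0.73 (adjusted p = 0.38). CD69, an activation antigen of leukocytes of the same lectin family, averaged 2.06 in Sig-M5, 2.23 in OCI-AML3 and 2.13 in MV-4-11, against 5.42 in OCI-M1, 6.15 in KG-1a, 5.60 in Kasumi-1 and 6.68 in NOMO-1. Over single arrays it ran from 1.90 to 2.39 (median 2.19) in the RARA-high lines and from 5.29 to 7.26 (median 5.95) in the RARA-low lines. The difference was -3.82 ± 0.31 (adjusted p = 0.137). 1 of its 3 probe sets separated the classes and all 3 had the same sign.

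C3AR1, the receptor for the complement fragment C3a, averaged 3.93 in Sig-M5, 4.02 in OCI-AML3 and 3.78 in MV-4-11, against 7.44 in OCI-M1, 8.14 in KG-1a, 7.20 in Kasumi-1 and 6.18 in NOMO-1. SMAD1, a mediator of bone morphogenetic protein signals, averaged 5.90 in Sig-M5, 3.51 in OCI-AML3 and 3.09 in MV-4-11, against 8.58 in OCI-M1, 7.35 in KG-1a, 9.04 in Kasumi-1 and 7.72 in NOMO-1. UBE2L6, the enzyme that conjugates the interferon-induced modifier ISG15, averaged 8.26 in Sig-M5, 7.96 in OCI-AML3 and 6.30 in MV-4-11, against 11.85 in OCI-M1, 12.16 in KG-1a, 9.93 in Kasumi-1 and 9.76 in NOMO-1. The RARA-low lines thus differed among themselves, with OCI-M1 and KG-1a highest, and the lowest of them still lay 1.50 above the highest RARA-high line.

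XK, a red cell membrane protein that carries the Kell complex, differed by -4.58 ± 0.98. It averaged 2.58 to 3.90 in the RARA-high lines and 5.42 in NOMO-1, 7.67 in KG-1a, 8.52 in Kasumi-1 and 9.68 in OCI-M1. SAT1, which acetylates polyamines, differed by -2.70 ± 0.41, and RRAGB, a GTPase of amino acid sensing, by -2.97 ± 0.57. The others were CMBL, a hydrolase (-4.56), the growth factor PDGFC (-3.11), the actin and phosphatase regulator PHACTR1 (-3.04), ARMCX1 (-2.74), the small membrane glycoprotein SMAGP (-2.58), the nucleotide hydrolase FHIT (-2.54) and STEAP1 (-2.28). All 15 were also separate over single arrays, which again are the arrays that chose them. Of the 12 genes with several probe sets, 11 had the same sign in every probe set and 5 were separate in every one. The deposited values carry no detection call, so a low level cannot be told apart from background, and no fold is given for the genes that lay near the bottom of the scale in either class.

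**Figure D2:**
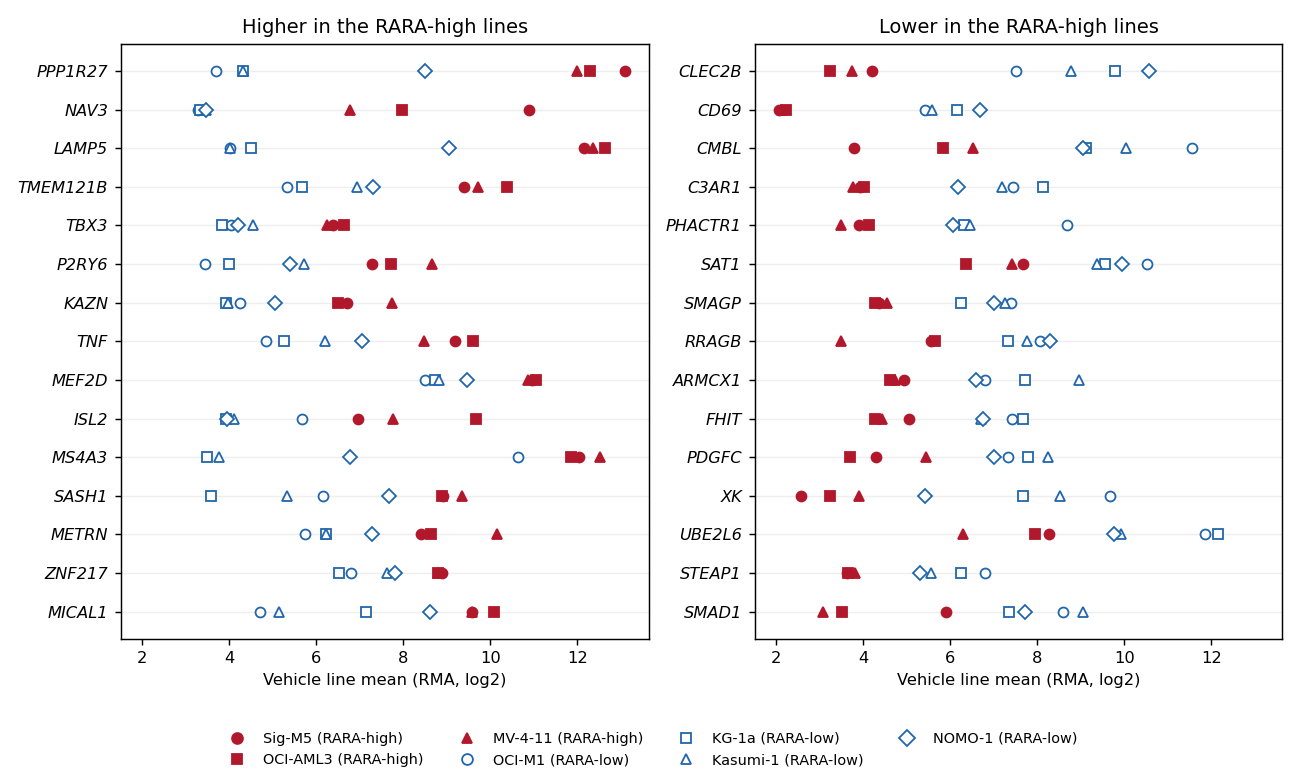
Vehicle line means (RMA, log2) of the 15 genes with the widest gap in each direction, RARA-high lines filled red and RARA-low lines open blue, 1 symbol per line. The gaps ran from 0.97 to 3.50 on the left and from 1.45 to 3.31 on the right, and in PPP1R27 and LAMP5 NOMO-1 lay between the other RARA-low lines and the RARA-high lines.

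Of the retinoid pathway outside RARA, no receptor separated the classes. RXRA, the usual partner of RARA, averaged 8.53 in Sig-M5, 9.72 in OCI-AML3 and 10.07 in MV-4-11, against 6.47 in OCI-M1, 8.24 in KG-1a, 7.65 in Kasumi-1 and 8.78 in NOMO-1. Its classes overlapped through NOMO-1, which lay above Sig-M5, and the difference was 1.65 ± 0.63 (adjusted p = 0.864). RARG, the third retinoic acid receptor, differed by 0.24 ± 0.15, RARB by 0.14 ± 0.16 and RXRB by 0.03 ± 0.30. All 8 receptors of the list had a positive difference, with a median of 0.11, against 0.06 over all genes, of which 59.0% were positive. The list also holds RXRG, and RORA, PPARD and VDR, which are neither retinoic acid receptors nor retinoid X receptors. DHRS3, a retinaldehyde reductase induced by retinoic acid, averaged 5.61 in Sig-M5, 4.88 in OCI-AML3 and 4.16 in MV-4-11, against 7.96 in OCI-M1, 4.60 in KG-1a, 8.16 in Kasumi-1 and 5.20 in NOMO-1.

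CYP26A1, which degrades retinoic acid, lay between 2.88 and 3.47 in 6 lines and at 4.999 in KG-1a. None of the 19 measured genes of retinoid metabolism and transport and none of the 15 corepressors and coactivators separated the classes, with median differences of -0.01 and 0.02. Of 22 genes reported as induced by retinoic acid, 2 lay lower in all RARA-high lines (9.09%, against 2.74% of all genes). In the higher direction there were 0 (against 4.38% of all genes), and the median difference was -0.15. PLAAT4, a phospholipase of retinoid-treated cells, averaged 3.91 in Sig-M5, 4.08 in OCI-AML3 and 4.22 in MV-4-11, against 8.18 in OCI-M1, 9.56 in KG-1a, 4.57 in Kasumi-1 and 6.24 in NOMO-1. ICAM1, an adhesion molecule, ran from 4.77 to 5.18 in the RARA-high lines and from 5.33 to 8.57 in the RARA-low lines. Its gap was 0.14, it overlapped over single arrays, and not all of its probe sets were separate. CD38, an ectoenzyme and known retinoic acid target, ran from 3.52 to 8.38 in the RARA-high lines and from 3.16 to 6.64 in the RARA-low lines. ITGAM, the integrin chain CD11b, ran from 3.50 to 4.43 in the RARA-high lines and from 2.91 to 10.82 in the RARA-low lines.

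Gene lists were described by the members whose line means separated the classes, read against 4.38% higher and 2.74% lower over all genes, and by their median difference. The cholesterol and fatty acid synthesis genes had the highest share in the lower direction among lists of at least 7 measured genes. The p53 targets had the highest share in the higher direction. In bulk RNA of a line, fewer expressing cells and less RNA per cell cannot be told apart. The lists were small, and neither a share nor a median was tested.

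**Figure D3:**
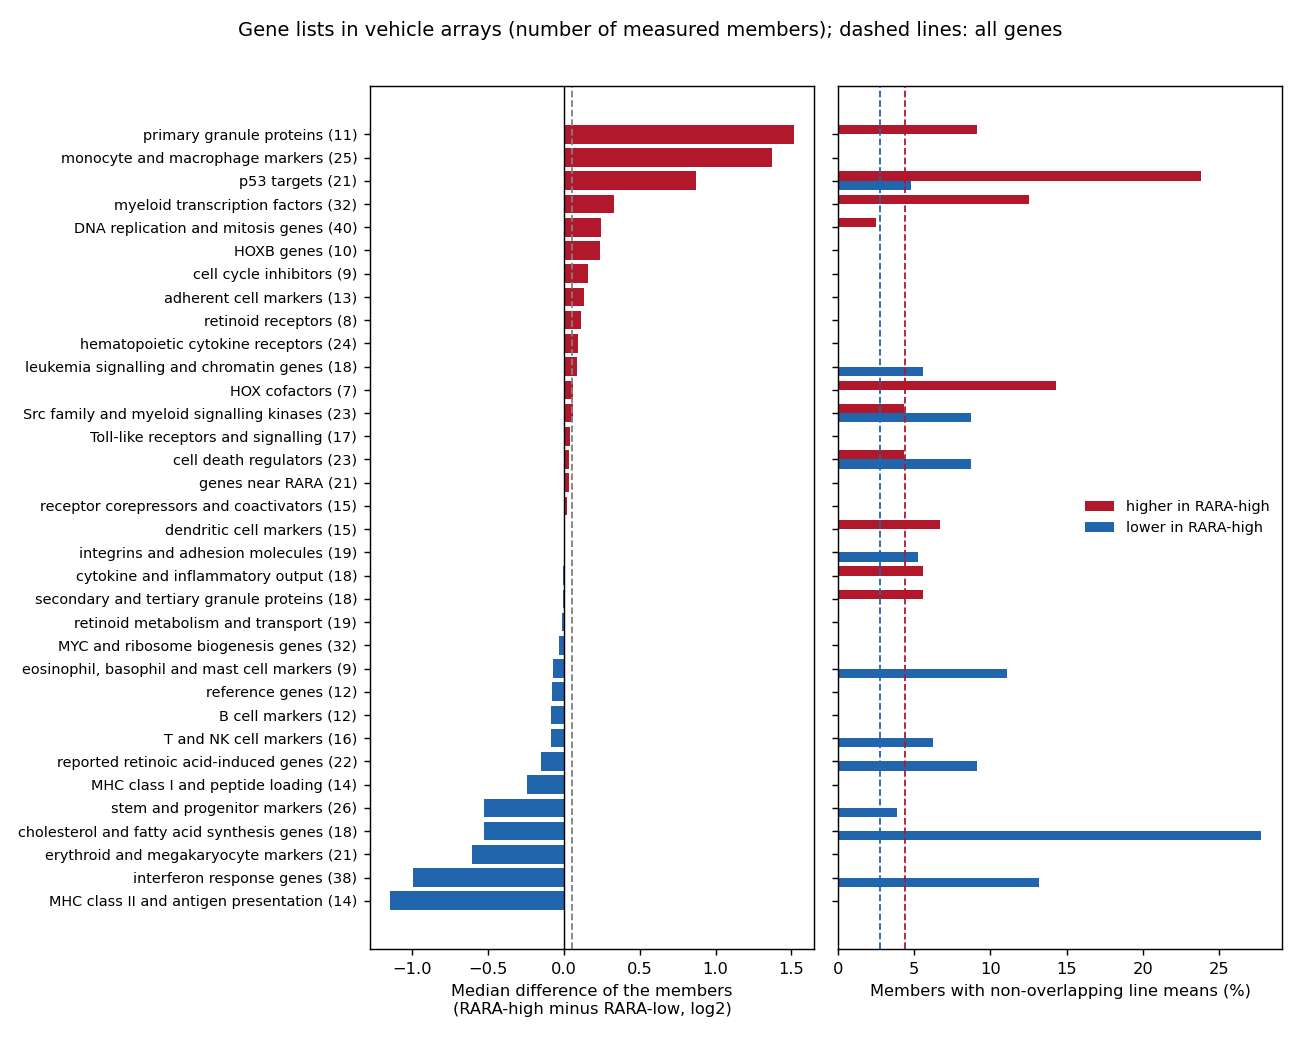
Gene lists with at least 7 measured members on the vehicle arrays. Left, median difference of the members (RARA-high minus RARA-low, log2), with the median of all genes dashed. Right, percent of members whose line means do not overlap between the classes, higher in red and lower in blue, with the shares of all genes (4.38% and 2.74%) dashed. The p53 targets reached 23.8% higher and the cholesterol and fatty acid synthesis genes 27.8% lower.

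Of 18 measured genes of cholesterol and fatty acid synthesis, 5 lay lower (27.8%) and 0 higher in all RARA-high lines, and the median difference was -0.52. DHCR7, which catalyses the last step of cholesterol synthesis, averaged 7.15 in Sig-M5, 7.64 in OCI-AML3 and 6.46 in MV-4-11. It averaged 10.78 in OCI-M1, 11.19 in KG-1a, 9.73 in Kasumi-1 and 8.89 in NOMO-1, and the difference was -3.06 ± 0.60 (8.35-fold higher in the RARA-low lines, adjusted p = 0.679). The single arrays of DHCR7 ran from 6.22 to 7.80 (median 7.15) in the RARA-high lines and from 8.67 to 11.23 (median 10.27) in the RARA-low lines. HMGCS1, which makes HMG-CoA at the start of the pathway, averaged 5.10 in Sig-M5, 6.85 in OCI-AML3 and 6.15 in MV-4-11, against 8.12 in OCI-M1, 8.04 in KG-1a, 8.33 in Kasumi-1 and 8.91 in NOMO-1. SQLE, the squalene epoxidase, ran from 8.32 to 9.36 in the RARA-high lines and from 10.04 to 10.85 in the RARA-low lines. SC5D, a late sterol desaturase, ran from 6.33 to 6.85 in the RARA-high lines and from 7.39 to 8.05 in the RARA-low lines. These 4 were also separate over single arrays, with array gaps of 0.36 for SC5D to 1.03 for HMGCS1, though 1 of the 2 HMGCS1 probe sets was separate. The fifth was the fatty acid elongase ELOVL6, added because it completed the count, at 2.79 to 4.03 in the RARA-high lines and 4.22 to 6.23 in the RARA-low lines. Without MV-4-11 or without NOMO-1 the lower count was 8, against 5.52% and 5.55% of all genes. Without 1 of the other lines it was 5 or 6, against 4.03% to 5.1% of all genes. In the higher direction 1 member was separate without Sig-M5, without OCI-AML3 or without Kasumi-1, against 7.64%, 10.7% and 7.42% of all genes. Without the 2 arrays of poorest integrity, Sig-M5 vehicle replicate 2 and Kasumi-1 vehicle replicate 2, 2 members were higher (4.39% of all genes) and 5 lower (2.80%).

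The promoters of DHCR7 and HMGCS1 are shown because these genes had the widest gaps of the pathway. They were searched for TCACNCCAC, a form of the sterol regulatory element, and for CCAAT, the box bound by the factor NF-Y, which acts with sterol-responsive factors at such promoters. Capitals mark CCAAT on either strand. Each of the genes has 2 listed promoters, and the first is shown because the second holds no CCAAT. The sequences are RefSeq promoters of GRCh38.p14, chr11:71448344-71448643 on the minus strand and chr5:43313363-43313662 on the minus strand.
DHCR7 promoter: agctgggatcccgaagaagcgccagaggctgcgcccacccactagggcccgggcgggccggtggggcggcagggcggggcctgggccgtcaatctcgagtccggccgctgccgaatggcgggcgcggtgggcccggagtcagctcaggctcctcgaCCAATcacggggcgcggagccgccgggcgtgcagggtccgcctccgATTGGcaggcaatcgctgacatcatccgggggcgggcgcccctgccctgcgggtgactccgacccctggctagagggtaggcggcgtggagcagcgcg
HMGCS1 promoter: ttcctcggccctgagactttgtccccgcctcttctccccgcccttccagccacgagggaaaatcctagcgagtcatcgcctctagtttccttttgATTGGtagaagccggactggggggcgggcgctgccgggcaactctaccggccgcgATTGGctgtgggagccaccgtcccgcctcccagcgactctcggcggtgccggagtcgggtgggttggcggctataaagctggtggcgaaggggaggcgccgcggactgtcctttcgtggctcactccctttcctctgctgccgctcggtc
Of the 5 lower genes, 4 had promoters in the table, 7 in all. TCACNCCAC was in 0 of the 7, against 1.13% of all promoters, which says only that these letters are not in these windows. CCAAT was in 4 of the 7, against 16 of 24 promoters of the whole list and 34.6% of all promoters. Other members of the list had positive differences. The difference was 0.71 for FASN, 0.45 for FDPS and 0.03 for SREBF2, all singled out after their values were seen.

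Of 38 measured interferon response genes, 5 lay lower (13.2%) and 0 higher in all RARA-high lines, and the median difference was -0.99, with 31 of 38 negative. IFITM3, which blocks the entry of enveloped viruses, averaged 5.15 in Sig-M5, 7.26 in OCI-AML3 and 8.16 in MV-4-11, against 12.70 in OCI-M1, 9.72 in KG-1a, 11.12 in Kasumi-1 and 8.94 in NOMO-1. The single arrays of IFITM3 ran from 5.04 to 8.29 (median 7.30) in the RARA-high lines and from 8.67 to 12.71 (median 10.37) in the RARA-low lines. The difference was -3.76 ± 1.09 (13.6-fold higher in the RARA-low lines, adjusted p = 0.864). RSAD2 (viperin, an antiviral enzyme) averaged 4.22 in Sig-M5, 4.28 in OCI-AML3 and 4.31 in MV-4-11, against 8.63 in OCI-M1, 9.62 in KG-1a, 4.46 in Kasumi-1 and 4.78 in NOMO-1. OCI-M1 and KG-1a were thus far above every other line, and the separation of Kasumi-1 from the RARA-high lines was 0.14. IFIT5, an RNA-binding antiviral protein, was also highest in OCI-M1 and KG-1a, with 3.37 to 3.67 in the RARA-high lines and 3.84 in Kasumi-1, 4.45 in NOMO-1, 5.21 in KG-1a and 7.47 in OCI-M1. Over single arrays the classes overlapped in RSAD2 and IFIT5. The exonuclease ISG20 had a gap of 0.03, and the chemokine CXCL10, named to complete the count, was at 3.39 in both OCI-AML3 and Kasumi-1. Without Sig-M5 vehicle replicate 2 and Kasumi-1 vehicle replicate 2, the arrays of poorest integrity, 3 members lay lower (2.8% of all genes). IFITM3, RSAD2 and IFIT5 still had a gap. Without OCI-M1 the list's median difference was -0.51 and the count was 5 (4.21% of all genes). The count was 9 without Sig-M5 (5.10% of all genes), 10 without Kasumi-1 (4.03%) and 10 without NOMO-1 (5.55%). In the higher direction 1 member was separate without OCI-AML3 (10.7% of all genes) or without OCI-M1 (5.83%).

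Promoters of 3 of these genes are shown because all 5 lower genes held the same motif there, a form of the interferon-stimulated response element that consists of GAAA, any 2 bases and GAAA again. Capitals mark it on either strand. The windows are chr11:320811-321110 on the minus strand, chr10:89414318-89414617 on the plus strand and chr2:6877527-6877826 on the plus strand of GRCh38.p14 in RefSeq.
IFITM3 promoter: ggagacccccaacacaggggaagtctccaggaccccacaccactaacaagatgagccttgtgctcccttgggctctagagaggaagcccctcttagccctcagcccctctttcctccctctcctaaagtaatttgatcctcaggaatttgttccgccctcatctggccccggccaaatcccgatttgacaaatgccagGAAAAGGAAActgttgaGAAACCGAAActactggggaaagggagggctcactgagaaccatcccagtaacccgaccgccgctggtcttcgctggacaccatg
IFIT5 promoter: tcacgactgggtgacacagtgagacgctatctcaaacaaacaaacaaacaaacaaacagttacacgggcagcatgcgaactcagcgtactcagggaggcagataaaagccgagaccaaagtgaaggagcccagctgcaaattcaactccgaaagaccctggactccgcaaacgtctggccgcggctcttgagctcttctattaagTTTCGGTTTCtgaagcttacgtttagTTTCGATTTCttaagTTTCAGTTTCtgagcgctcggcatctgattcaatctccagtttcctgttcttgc
RSAD2 promoter: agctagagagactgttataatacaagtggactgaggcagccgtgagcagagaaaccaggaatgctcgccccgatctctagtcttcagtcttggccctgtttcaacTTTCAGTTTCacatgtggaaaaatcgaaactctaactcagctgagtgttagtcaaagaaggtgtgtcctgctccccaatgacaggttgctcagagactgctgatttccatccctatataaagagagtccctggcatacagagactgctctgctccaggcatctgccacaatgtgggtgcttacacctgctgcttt
The motif was found in 5 of the 6 promoters of the 5 lower genes. It was in 25 of 35 promoters of the 28 list members with a promoter in the table, and in 3.57% of all promoters. IFIT5 held 3 matches, IFITM3 held 2 and the second RSAD2 promoter held 1.

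Of 21 measured p53 targets, 5 lay higher (23.8%) and 1 lower in all RARA-high lines, and the median difference was 0.87, with 17 positive. PHLDA3, an inhibitor of AKT signalling, averaged 9.36 in Sig-M5, 8.27 in OCI-AML3 and 8.71 in MV-4-11, against 5.44 in OCI-M1, 6.15 in KG-1a, 5.48 in Kasumi-1 and 7.76 in NOMO-1. The single arrays of PHLDA3 ran from 8.09 to 9.46 (median 8.65) in the RARA-high lines and from 4.82 to 7.95 (median 6.12) in the RARA-low lines. The difference was 2.57 ± 0.62 (5.95-fold, adjusted p = 0.792), and its 3 probe sets were all separate. RRM2B, the p53-inducible subunit of ribonucleotide reductase, ran from 6.68 to 8.77 in the RARA-high lines and from 4.83 to 6.55 in the RARA-low lines, and 1 of its 9 probe sets was separate. The DNA repair factor XPC ran from 7.95 to 8.84 in the RARA-high lines and from 6.66 to 7.83 in the RARA-low lines. The death receptor TNFRSF10B had a gap of 0.04, and both TNFRSF10B and RRM2B overlapped over single arrays. The fifth was the metabolic regulator TIGAR, named to complete the count, with a gap of 0.01. GADD45A, a growth arrest gene, went the other way. It ran from 7.61 to 8.46 in the RARA-high lines, against 10.76 in OCI-M1, 9.08 in KG-1a, 9.37 in Kasumi-1 and 9.32 in NOMO-1.

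CDKN1A, the cyclin-dependent kinase inhibitor p21 and the best known p53 target, was singled out after its values were seen. It averaged 10.58 in Sig-M5, 9.01 in OCI-AML3 and 10.36 in MV-4-11, against 6.80 in OCI-M1, 6.25 in KG-1a, 6.20 in Kasumi-1 and 9.22 in NOMO-1. NOMO-1 was above OCI-AML3, and without NOMO-1 the list had 10 of 21 members higher in all RARA-high lines, against 7.98% of all genes, and 3 lower, against 5.55%. Without OCI-AML3 the higher count was 9, against 10.7% of all genes. Without 1 of the other 5 lines it was 5 to 7, against 5.83% to 10.3% of all genes. The median difference of the list was 0.38 without Sig-M5, the line with arrays of poorer integrity.

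Of 32 measured myeloid transcription factors, 4 lay higher (12.5%) and 0 lower in all RARA-high lines, and the median difference was 0.33. IRF8, which directs monocyte and dendritic cell fate, averaged 11.00 in Sig-M5, 12.83 in OCI-AML3 and 12.39 in MV-4-11, against 3.77 in OCI-M1, 4.36 in KG-1a, 7.50 in Kasumi-1 and 10.86 in NOMO-1. The gap to NOMO-1 was 0.14, and 1 of its 3 probe sets was separate. CEBPA, the factor of granulocytic commitment, averaged 10.71 in Sig-M5, 11.78 in OCI-AML3 and 11.51 in MV-4-11, against 8.32 in OCI-M1, 9.12 in KG-1a, 7.80 in Kasumi-1 and 10.50 in NOMO-1. SPI1 (PU.1), a regulator of both myeloid branches, ran from 6.44 to 6.89 in the RARA-high lines and from 4.85 to 6.11 in the RARA-low lines. ZEB2, a zinc-finger repressor, ran from 7.08 to 8.54 in the RARA-high lines and from 4.20 to 6.56 in the RARA-low lines. CEBPA was separate over single arrays, by 0.04, and IRF8, SPI1 and ZEB2 were not. In IRF8, CEBPA and SPI1 NOMO-1 was the RARA-low line nearest to the RARA-high lines. Without OCI-M1 the median of the list was -0.02, so the sign of that median rested on this line.

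Monocyte and primary granule markers had positive median differences, and the classes overlapped in nearly all of them. The median difference of 25 monocyte and macrophage markers was 1.37, with 21 positive and 0 separate. LYZ (lysozyme), singled out after its values were seen, averaged 13.66 in Sig-M5, 12.18 in OCI-AML3 and 13.32 in MV-4-11, against 9.84 in OCI-M1, 5.14 in KG-1a, 7.87 in Kasumi-1 and 13.61 in NOMO-1. The median of 11 primary granule proteins was 1.52, with MS4A3 the separate one. PRTN3 (proteinase 3), singled out after its values were seen, averaged 12.74 in Sig-M5, 10.67 in OCI-AML3 and 11.36 in MV-4-11, against 11.74 in Kasumi-1, 9.90 in NOMO-1, 4.89 in OCI-M1 and 3.70 in KG-1a, so its classes overlapped through Kasumi-1. Of 18 secondary and tertiary granule proteins, with a median difference of -0.00, 1 was separate, the gelatinase MMP9, at 4.38 to 5.04 in the RARA-high lines and 3.78 to 4.22 in the RARA-low lines. Among 15 dendritic cell markers, with a median of 0.01, the factor BATF3 was separate, at 6.78 to 8.06 in the RARA-high lines and 4.82 to 6.32 in the RARA-low lines. The T cell chain CD3D was at 12.26 in KG-1a and at 3.22 to 3.59 in the other 6 lines, and its gap of 0.01 did not hold over single arrays. CLC, an eosinophil granule protein at 3.18 in both OCI-AML3 and KG-1a, and MEIS3, a HOX cofactor with a gap of 0.02, also overlapped over single arrays. The same held for MMP9.

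Stem and progenitor markers had a median difference of -0.52, with 21 of 26 negative and 1 separate. That 1 was CDK6, a cell cycle kinase, which overlapped between the classes over single arrays. It averaged 8.88 in Sig-M5, 7.99 in OCI-AML3 and 9.02 in MV-4-11, against 11.02 in OCI-M1, 9.58 in KG-1a, 9.55 in Kasumi-1 and 11.15 in NOMO-1. CD34 was at 5.04 to 5.28 in the RARA-high lines, and of the RARA-low lines KG-1a (9.67) and Kasumi-1 (7.70) were above that while OCI-M1 (4.93) and NOMO-1 (4.94) were not. MEIS1, a HOX cofactor of leukemic self-renewal, was at 6.04 in OCI-AML3, 7.41 in MV-4-11 and 3.24 in Sig-M5, against 6.55 in NOMO-1 and 3.28 to 3.54 in the other RARA-low lines. MYC was at 11.17 to 12.54 in the RARA-high lines and at 11.17 to 12.70 in the RARA-low lines. The median of 21 erythroid and megakaryocyte markers was -0.60 with 0 separate. The median of 14 genes of MHC class II and antigen presentation was -1.14 with 12 negative and 0 separate. HLA-DRA, singled out after its values were seen, was at 9.73 in MV-4-11, 4.03 in Sig-M5 and 3.87 in OCI-AML3, against 13.50 in NOMO-1, 12.64 in OCI-M1, 7.90 in Kasumi-1 and 3.90 in KG-1a.

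Of 23 Src family and myeloid signalling genes 1 lay higher (4.35%, against 4.38% of all genes) and 2 lower (8.70%, against 2.74%) in all RARA-high lines. STAT5A, a transcription factor downstream of cytokine receptors, averaged 5.28 in Sig-M5, 4.58 in OCI-AML3 and 7.79 in MV-4-11, against 10.47 in OCI-M1, 9.95 in KG-1a, 10.07 in Kasumi-1 and 8.19 in NOMO-1. The difference was -3.79 ± 0.90 (adjusted p = 0.763), and the gap between MV-4-11 and NOMO-1 was 0.40. Its neighbour and paralog STAT5B ran from 6.84 to 7.65 in the RARA-high lines and from 7.81 to 9.10 in the RARA-low lines. STAT5B overlapped over single arrays. PTPN6, the phosphatase SHP-1, averaged 10.18 in Sig-M5, 10.64 in OCI-AML3 and 10.47 in MV-4-11, against 8.73 in OCI-M1, 6.45 in KG-1a, 7.51 in Kasumi-1 and 9.87 in NOMO-1.

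Of 23 cell death regulators 1 lay higher (4.35%) and 2 lower (8.70%), the same shares. BCL2, the anti-apoptotic protein, ran from 7.35 to 9.03 in the RARA-high lines and from 5.41 to 7.07 in the RARA-low lines, and 1 of its 6 probe sets was separate. CASP8, the initiator caspase of death receptors, ran from 6.61 to 8.16 in the RARA-high lines and from 8.42 to 9.03 in the RARA-low lines. BAD, a pro-apoptotic BCL2 relative, had a gap of 0.03, and both BAD and BCL2 overlapped over single arrays. TET1, a DNA demethylation enzyme, was the 1 separate gene of 18 in leukemia signalling and chromatin genes, at 3.60 to 4.18 in the RARA-high lines and 4.30 to 6.62 in the RARA-low lines. TET1 overlapped between the classes over single arrays. Of 40 DNA replication and mitosis genes 34 had a positive difference, with a median of 0.25. The kinetochore protein CENPF was the 1 separate member (2.5% higher, against 4.38% of all genes). CENPF overlapped over single arrays, with OCI-AML3 at 4.82 to 7.19 and NOMO-1 at up to 6.31. Its other probe set was not separate. CENPF was at 8.82 in Sig-M5, 6.09 in OCI-AML3 and 6.06 in MV-4-11, against 4.91 to 5.77 in the RARA-low lines. The 12 reference genes had 0 separate members and a median of -0.08. None of 14 genes of MHC class I, 32 of MYC and ribosome biogenesis, 24 cytokine receptors, 17 of Toll-like receptor signalling, 12 B cell markers, 10 HOXB genes or 9 cell cycle inhibitors was separate. Of the HOXA genes 1 was measured here, with a difference of -0.34, and the others were not analysed here.

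**Figure D4:**
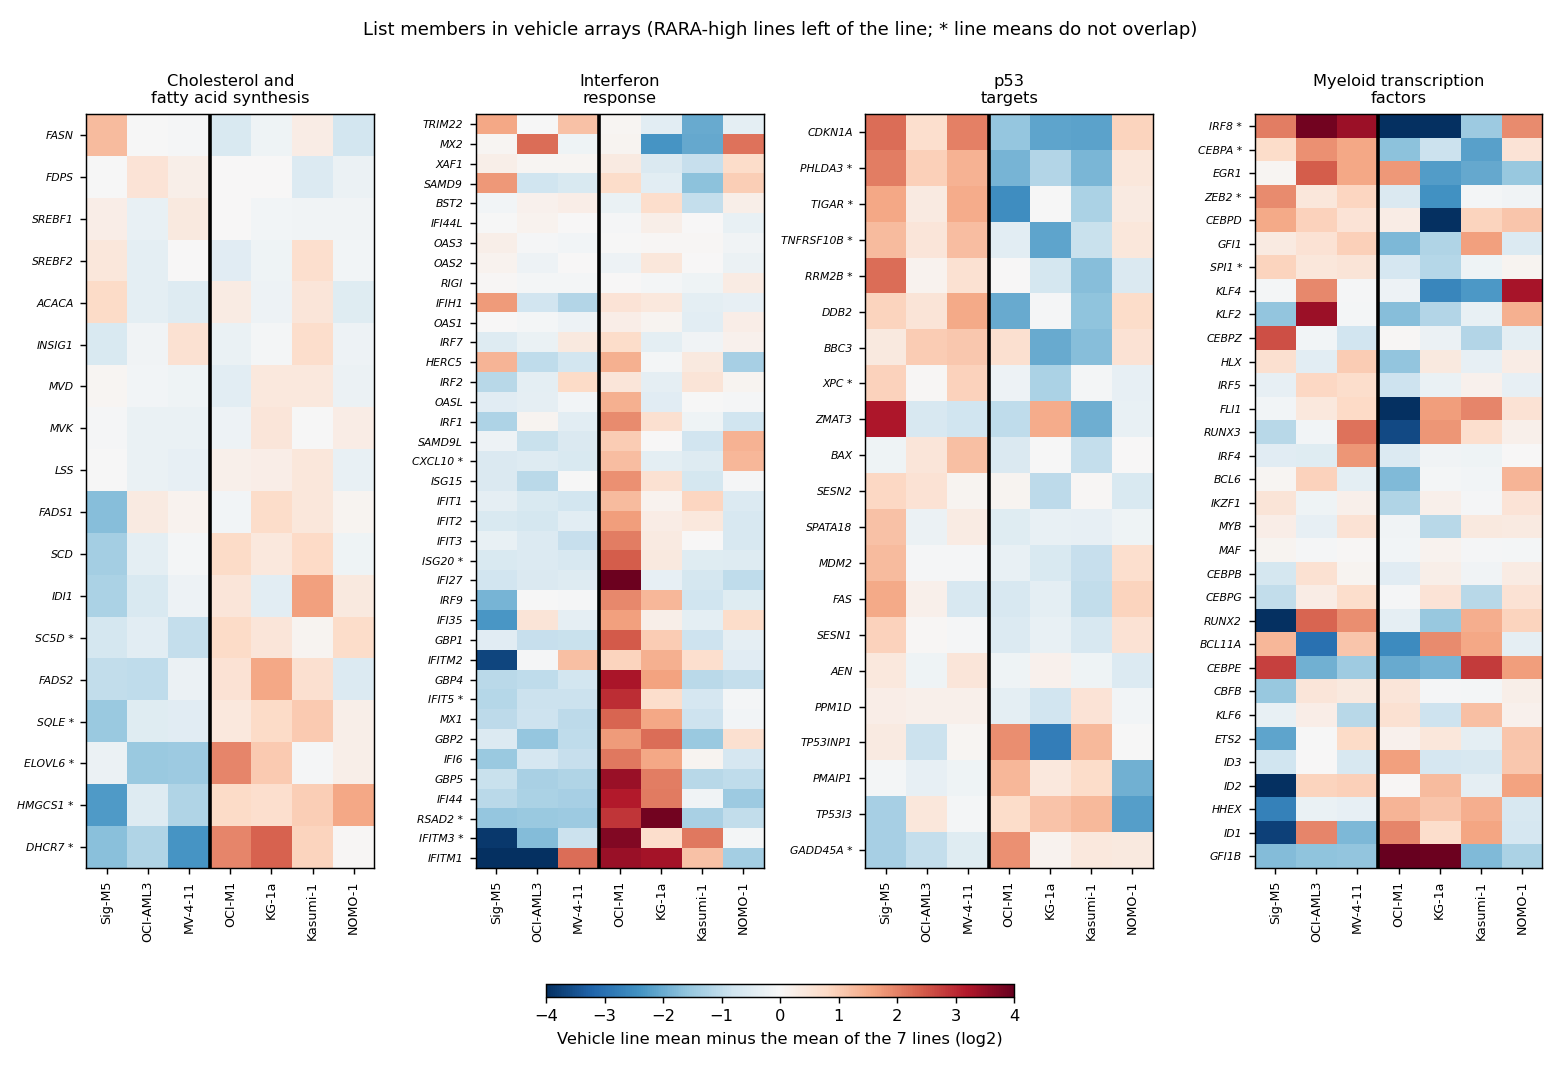
Vehicle line means of the members of 4 gene lists, each minus the mean of the 7 lines (log2; the colour scale ends at 4 on either side), RARA-high lines left of the black line. A star marks members whose line means do not overlap. DHCR7 was below its mean in all RARA-high lines, OCI-M1 and KG-1a stood out in the interferon response genes, and NOMO-1 resembled the RARA-high lines in several p53 targets and in IRF8.

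The same contrast on the tamibarotene arrays drew on the same lines, so it is no independent support. There limma called 0 genes, with 874 (4.82%) at an unadjusted p under 0.05. Line means were separate for 482 genes in the higher direction (2.66%) and 535 in the lower (2.95%). Of the separate genes, 173 were higher in both arms, which is 35.9% of those on tamibarotene arrays and 21.8% of those on vehicle arrays. In the lower direction 279 were separate in both arms, 52.1% of those on tamibarotene arrays and 56.1% of those on vehicle arrays. Of the genes with the widest gaps on vehicle arrays, 13 of the 15 higher and 15 of the 15 lower ones were also separate under the drug. The exceptions were TMEM121B and TNF. TNF averaged 5.81 in Sig-M5, 8.14 in OCI-AML3 and 8.33 in MV-4-11 under the drug, against 4.66 in OCI-M1, 4.93 in KG-1a, 6.61 in Kasumi-1 and 6.84 in NOMO-1.

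DHRS3 and CD38 were separate between the classes on the tamibarotene arrays, by 0.59 and 0.04, and overlapped on the vehicle arrays. The class difference in DHRS3 was 2.17 on tamibarotene arrays and -1.60 on vehicle arrays, and that in CD38 was 3.22 on tamibarotene arrays and 1.53 on vehicle arrays. The drug minus vehicle value of DHRS3 averaged 6.07 in the RARA-high lines and 2.30 in the RARA-low lines. That of CD38 averaged 4.50 in the RARA-high lines and 2.81 in the RARA-low lines, but the classes overlapped. It was 3.51 in Sig-M5, 2.81 in OCI-AML3 and 7.18 in MV-4-11, against 0.92 in OCI-M1, 4.50 in KG-1a, 1.80 in Kasumi-1 and 4.02 in NOMO-1. RXRA differed between the classes by 0.45 on tamibarotene arrays and by 1.65 on vehicle arrays. Its drug minus vehicle value averaged -1.38 in the RARA-high lines and -0.17 in the RARA-low lines. The drug minus vehicle value of CYP26A1 was 7.10 in OCI-M1, 5.97 in OCI-AML3 and 3.78 in MV-4-11, and -0.23 to 0.66 in the other lines. That of ITGAM averaged 2.97 in the RARA-high lines and 1.21 in the RARA-low lines, with KG-1a (2.25) above OCI-AML3 (1.34). These responses were set side by side and not tested. Of the 30 genes with the widest gaps, TBX3 (3.41 on tamibarotene arrays and 2.26 on vehicle arrays), TMEM121B (2.32 on tamibarotene arrays and 3.52 on vehicle arrays) and TNF (1.67 on tamibarotene arrays and 3.26 on vehicle arrays) had class differences more than 1 apart.

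**Figure D5:**
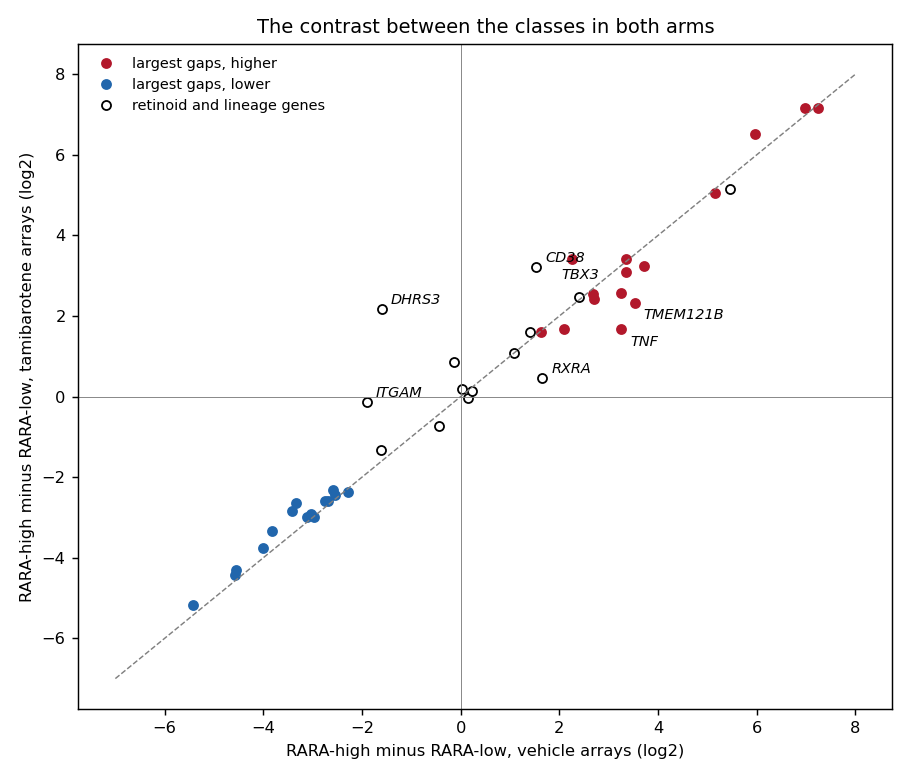
Difference between the classes (RARA-high minus RARA-low, log2) on vehicle arrays (horizontal) and tamibarotene arrays (vertical) for the 30 genes with the widest gaps and for retinoid and lineage genes, with the line of equality dashed. Genes whose differences in the arms are more than 1 apart are named. DHRS3 lay at 2.17 on tamibarotene and -1.60 on vehicle arrays, CD38 at 3.22 and 1.53, and RXRA at 0.45 and 1.65 in the same arms.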

How the data were processed

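Transcript levels came from Affymetrix PrimeView arrays. The deposited values are RMA levels on the log2 scale, which the authors made from the scanner intensities with affy, per the submitters' processing notes. No detection call is used here, and a genome build for the probe sets is not given in the sources used here. The table held 49395 probe sets, of which 102 were controls and 44988 had 1 gene symbol in the platform annotation. Where a gene had several probe sets, the one with the greatest mean level across the 39 arrays stood for it, which gave 18132 genes, and 18131 were tested, since RARA set the classes.

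Vehicle arrays were averaged per line, and the 3 RARA-high line means were compared with the 4 RARA-low ones in limma (version 3.58.1, R 4.3.3; lmFit, then eBayes; two-sided, Benjamini-Hochberg adjustment, threshold 0.05), without a replicate block. The fit was tested on simulated data. Figures were drawn with matplotlib 3.10.9 and promoters were scanned in Python 3.11.15 with pandas 2.3.3. Named genes were the 15 widest gaps between classes in each direction, up to 4 separated members of each gene list per direction by gap, and a fixed set of retinoid and lineage genes; others are marked where they appear. The members and lists were chosen with earlier results of these data known. Alternatives left out lines or arrays, and changed the probe set rule, normalization, filter, moderation, unit of the spread and covariates. The number of arrays limits the precision.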

Additional observations from a re-analysis of the deposited data

Results flagged for a closer look

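Among the 4 RARA-low lines, 1 line stood far from the other 3 in 8 of 75 genes examined, by Dixon's test on vehicle line means. Chance alone marks about 1 group in 20 where values are normally spread and genes are not selected. Most of these genes were chosen from the same line means, so the count cannot be compared with that rate. NOMO-1 was high in PPP1R27 (8.49, with the next line at 4.31), LAMP5 (9.05) and MEIS1 (6.55), and low in MYC (11.17). OCI-M1 was high in ISL2 (5.68) and PHACTR1 (8.69). KG-1a was high in CD3D (12.26) and CYP26A1 (4.9992). In 7 of the 8 the line was above the others, and in PPP1R27 and LAMP5 NOMO-1 was still below every RARA-high line. The RARA-high class has 3 lines and was not examined in this way.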

How the results depend on the processing

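limma called 0 genes in each direction over the 7 line means (914 at an unadjusted p under 0.05), and 0 with any single array left out. Leaving out 1 line gave 0 to 5 genes higher and 0 to 3 lower. Line as a random block gave 62 higher and 173 lower, the spread between arrays within lines 4524 higher and 4101 lower, and the actin covariate 1 lower (SMAD1). The random block and the within-line spread take arrays as units, so their calls do not hold for lines as units. The replicate block called 0 genes and left 806 higher and 495 lower separate, and it changed no call. Same-numbered arrays of different lines correlated at -0.73 to 0.73 in their deviations from the line means (median -0.00). Different-numbered arrays did so at -0.66 to 0.73 (median -0.00). Same-numbered arrays were thus no more alike than others, and the source of the wide range was not tested. The separate genes, 795 higher and 497 lower, ranged from 1057 to 1945 higher and 731 to 1007 lower with 1 line left out, where fewer lines must be separate, and from 715 to 860 higher and 476 to 512 lower with 1 array left out. Over every probe set the counts were 1787 higher and 1191 lower, out of 44978 probe sets in place of 18131 genes. Over single arrays 85 genes were higher and 185 lower. Of the named genes RXRB (-0.18 to 0.24) and CYP26A1 (-0.34 to 0.37) changed sign when 1 line or array was left out; the cause was not tested. Low signal over background limits genes near the bottom of the scale.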

Other observations

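The genes that separated the classes were unevenly placed over the chromosomes, given here as counts without a test. Of the 18131 genes, 18077 had a chromosome in the RefSeq table. On chromosome 16 6.93% of 750 genes were higher and 1.07% lower in all RARA-high lines, and on chromosome 20 6.14% of 521 genes were higher and 0.576% lower. On chromosome 17, which carries RARA, 5.59% of 1056 genes were higher and 1.04% lower. Chromosome 10 ran the other way, with 3.47% of 691 genes higher and 6.37% lower, as did chromosome 6, with 2.63% of 988 genes higher and 5.16% lower. The shares over all genes were 4.38% and 2.74%.

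Of the 15 genes with the widest gaps in the lower direction, 4 were on chromosome 12 (CLEC2B, CD69, C3AR1 and SMAGP) and 4 on the X chromosome (SAT1, RRAGB, ARMCX1 and XK). Chromosome 12 held 5.37% and the X chromosome 3.73% of all genes with a chromosome. Over all its genes chromosome 12 did not lean this way, with 1.96% lower and 4.12% higher in all RARA-high lines, and the X chromosome had 3.71% lower and 3.12% higher. The 3 higher gap genes TNF, SASH1 and MICAL1 were on chromosome 6. Copy number was not measured here.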
